A study of Homo sapiens with 14 samples.

Results

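The earliest time of a CTCF depletion series in prostate cancer cells was examined, by comparing cells given CTCF siRNA (small interfering RNA) with cells given control siRNA for 24 h. The arrays were chosen by their labels, which name the siRNA pool and the time, and they number 4 of the 14 arrays of the series: 2 of control siRNA and 2 of CTCF siRNA. All were LNCaP, a long-established human line from prostate cancer that responds to androgen. The control cells had received 20 nM of a non-targeting siRNA pool and the depleted cells 20 nM of a pool of 4 siRNAs against CTCF, and both had been collected 24 h after transfection. Expression was read on Affymetrix Human Gene 2.0 ST arrays from total RNA labelled with biotin. The other 10 arrays hold untransfected LNCaP cells with no time in their labels (2 arrays) and both siRNA pools at 72 and 144 h (2 arrays each), the 144 h cells having been split at 72 h and transfected a second time. The study calls its duplicates biological. At 24 h the labels do not say which culture each array came from, so p-values reflect the spread between arrays, which may be technical.

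The CTCF protein recognises a long DNA motif through its zinc fingers, stops the loop extrusion of cohesin, the ring complex that folds chromosomes, and marks many borders between chromatin domains. Its transcript can be cut by siRNA within hours, whereas protein already made and bound has its own turnover. Protein was not measured on these arrays. The question put to the 24 h arrays was which genes and processes had moved with the transcript, which were held within a narrow interval, and which leaned to a side without passing the test.

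The depleting agents were these 4 sequences, shown as the labels list them, 5′ to 3′ and without capitals because no part was singled out. The second is written with 18 bases and the others with 19.
CTCF siRNA 1: gaugaagacugaaguaaug
CTCF siRNA 2: ggagaaagaagaagagua
CTCF siRNA 3: gaagaugccugccacuuac
CTCF siRNA 4: gaacagcccauaaacauag

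Values below are RMA log2 values (background corrected, quantile normalised and summarised per probe set by the authors), so a difference of 1 is 2-fold. Differences are CTCF siRNA minus control siRNA, with the standard error (SE) of a limma fit, n = 2 arrays per group. In all, 16098 probe sets with exactly 1 named gene were tested, which stand for 14884 genes. Replicate arrays correlated at r = 0.994 in both 24 h groups, and over all 7 groups r was 0.992 to 0.994. The median SE of a 24 h difference was 0.140, and the median 95% interval reached 0.312 to either side. For a single gene, an exact two-sided permutation test of 2 arrays against 2 cannot go below p = 0.333, so the tests rest on the fit across all probe sets. The 6 measured prostate luminal markers had a median signal of 8.35 and 8.34 in the control arrays. Since the brightness of a probe set depends on its probes and no detection calls were used, the label of the cells was not tested by setting these against markers of other cell types.

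The CTCF transcript was already depleted at 24 h. Its probe set (16820193, chromosome 16) read 9.001 and 9.11 in control siRNA replicates 1 and 2, and 6.73 and 7.25 in CTCF siRNA replicates 1 and 2. Both depleted arrays lay far below both controls and below the untransfected cells, at 8.85 and 8.78. The difference was −2.07 ± 0.18 (SE, n = 2; limma adjusted p = 0.00573). Within the replicate numbers of the titles it was −2.27 and −1.86, which are losses of 79.3% and 72.5%. Replicate 1 was thus the more depleted at this time. At later times the difference was −1.72 (72 h) and −2.24 (144 h), and that of 144 h minus 24 h was −0.17 ± 0.25 (limma adjusted p = 0.866).

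**Figure D1:**
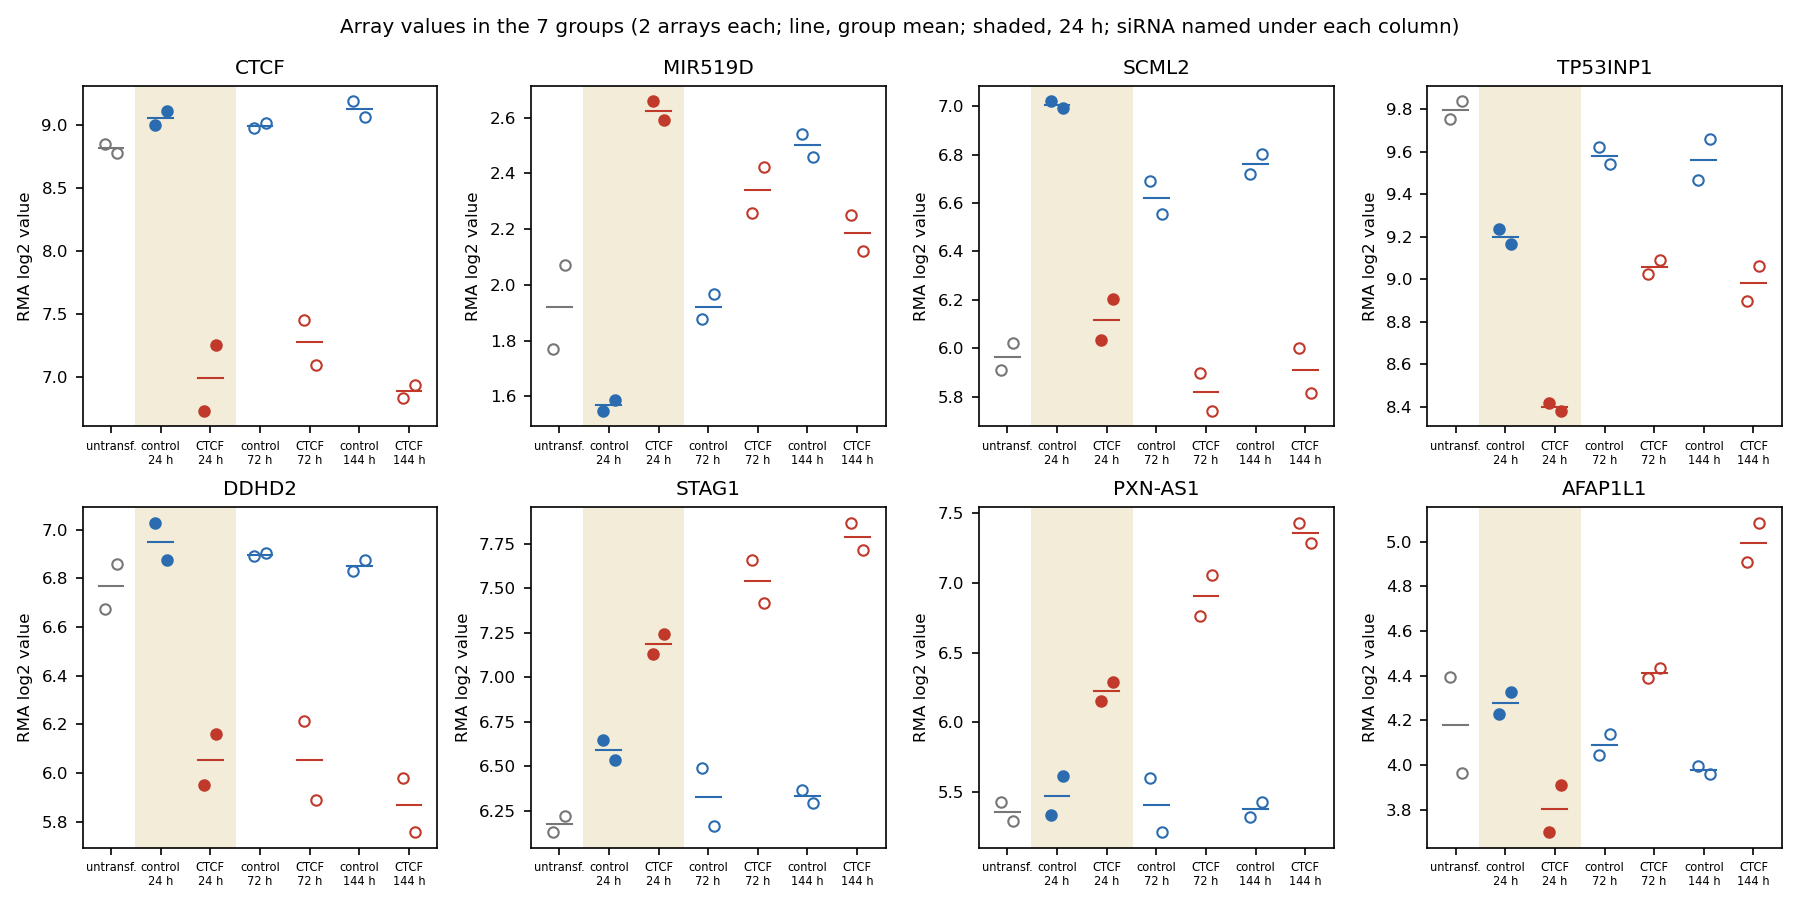
RMA log2 values of 8 genes in the 7 groups, 2 arrays per group (points) with the group mean (line); blue is control siRNA, red CTCF siRNA, grey untransfected, and the 24 h arrays are filled and shaded. CTCF sits at 6.73 and 7.25 in the depleted 24 h arrays against 9.001 and 9.11 in the controls; each panel has its own vertical scale, which does not start at 0.

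Besides CTCF, 1 probe set was called. Of 16098 probe sets, 2 passed the threshold of 0.05 after Benjamini-Hochberg adjustment in limma (0.0124%), against 0.186% at 72 h and 3.76% at 144 h. At an unadjusted p under 0.05 there were 971 (6.03%), 372 higher (2.31%) and 599 lower (3.72%) after CTCF siRNA. That split went with the scaling in part, since the share of higher ones, 38.3%, was 46.2% once the arrays were shifted to a common median and 47.4% once they were quantile normalised again. Arrays of the same design were simulated with 200 changed probe sets. On them the fit recovered 47.8% of 1.5-fold, 97% of 2-fold and 100% of 4-fold changes at 24 h. It made 173 calls there, which sets a looser cutoff than 2 calls do, so these shares do not carry over to the real arrays. Few sizes were large: 113 probe sets differed by more than 1.5-fold and 12 by more than 2-fold. Calls were lost as arrays were left out. Without control siRNA 24 h replicate 1, control siRNA 24 h replicate 2 or CTCF siRNA 24 h replicate 1 none remained, and CTCF itself then had limma adjusted p = 0.138, 0.196 and 0.056, with differences of −2.11, −2.03 and −1.78.

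The replicate numbers shared little of their differences. Across probe sets the difference of replicate number 1 correlated with that of number 2 at r = 0.094, which is across genes, and genes are not independent replicates. The sign was the same in both for 8527 probe sets (53%). On the same side in both, 4 probe sets differed by more than 2-fold. Besides CTCF and MIR519D these were the microRNA genes MIR3116-1, at −1.27 and −1.30, and MIR3127, at −1.54 and −1.18, named here after their values were seen. Neither passed the threshold (limma adjusted p = 0.636 and 0.414).

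**Figure D2:**
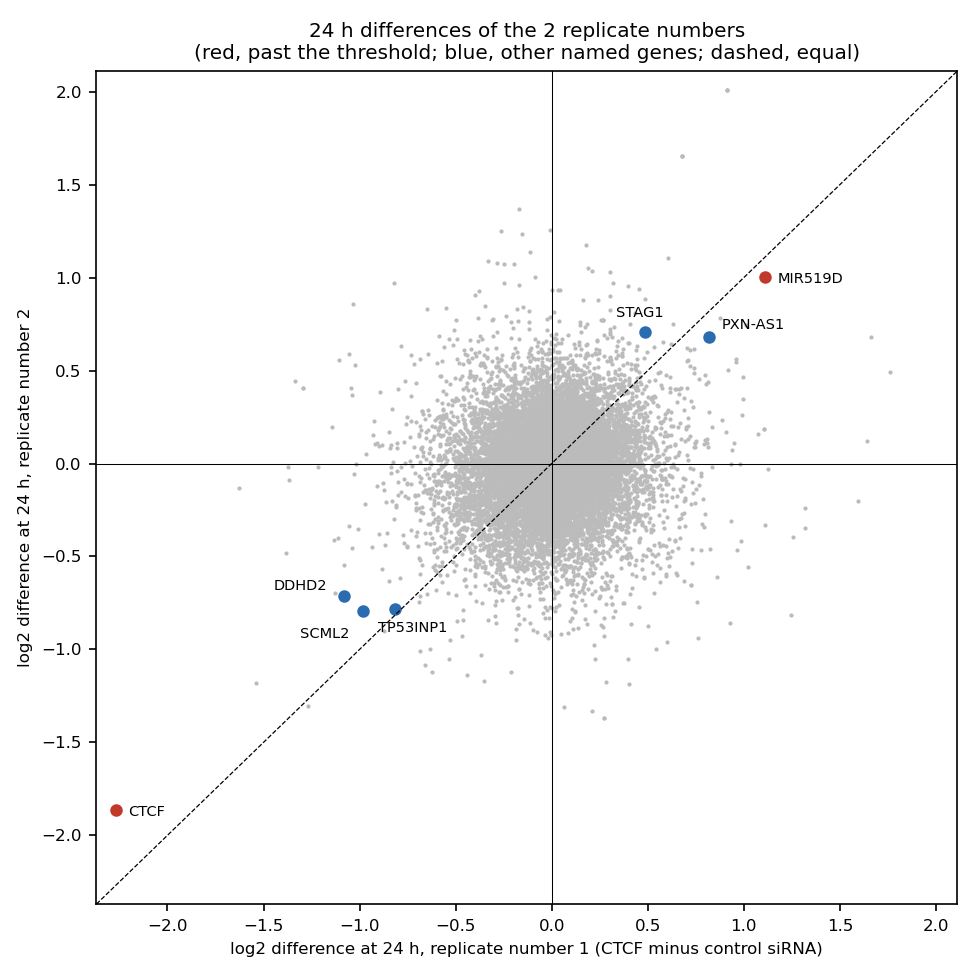
Log2 differences of CTCF minus control siRNA at 24 h for 16098 probe sets, replicate number 1 (horizontal) against replicate number 2 (vertical); red points passed the threshold, blue points are other named genes, and the dashed line marks equal differences. The cloud is close to round (r = 0.094), with CTCF at −2.27 and −1.86 and MIR519D at 1.11 and 1.003.

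MIR519D rose. This microRNA gene belongs to the large chromosome 19 cluster, whose microRNAs are known mainly from placenta and embryonic stem cells. Its probe set (16865062) read 1.55 and 1.59 in the control arrays and 2.66 and 2.59 after CTCF siRNA, a difference of 1.06 ± 0.11 (limma adjusted p = 0.0242). The groups did not overlap, but the level lay in the 9.37th percentile of the probe sets, and the 2 control arrays were the lowest of all 14. Every other array, untransfected and later ones included, read between 1.77 and 2.66. At 72 h the difference was 0.42 and at 144 h −0.31, neither past the threshold, and the effect at 144 h minus that at 24 h was −1.37 (limma adjusted p = 0.00557). The 24 h value that singled out MIR519D enters that last test. Its call at 24 h was lost without any of the 4 arrays of 24 h and without 6 of the other 8 siRNA arrays.

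The probe set does not separate the 2 arms of the hairpin, and mature microRNAs were not measured. The mature arms, from RefSeq on GRCh38.p14, are shown for MIR519D and for MIR520G of the same cluster, which leaned the other way, with the seed (bases 2 to 8) in capitals.
hsa-miR-519d-5p: cCUCCAAAgggaagcgcuuucuguu
hsa-miR-519d-3p: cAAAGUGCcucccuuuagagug
hsa-miR-520g-5p: uCUAGAGGaagcacuuucuguuu
hsa-miR-520g-3p: aCAAAGUGcuucccuuuagagugu

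The 4 arms have 4 different seeds, although those of both 3p arms hold AAAGUG, at bases 2 to 7 in miR-519d-3p and at bases 3 to 8 in miR-520g-3p. MIR520G (16865070) read 2.39 and 2.81 in the control arrays and 1.76 and 1.81 after CTCF siRNA, −0.82 ± 0.14 (limma adjusted p = 0.361). So 2 genes of a cluster sat on opposite sides, both at low level. Of the 43 cluster members measured, 3 lay higher and 3 lower at an unadjusted p under 0.05. Of all 1236 microRNA probe sets, 63 lay higher and 84 lower. The median difference of the cluster members was 0.03. The median member sat in the 6.7th percentile of level, and 53.5% were held within 1.5-fold, meaning that the 95% interval of the difference lay inside that range, against 52% of all 1236 microRNA probe sets and 80.4% of all genes. Among the 30 probe sets of lowest p, 10 were microRNA genes, a class that makes up 1236 of the 16098.

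Of the other genes, those with the smallest p in each direction are described next as leaning, not as changed, because none passed the threshold (limma adjusted p 0.137 to 0.693). They were picked by their 24 h p, so the gap between their groups at 24 h is a description only. The later differences played no part in the choice. The spread, shared by all siRNA arrays, entered both the choice and the later p-values, so later calls are not fully independent of it. On the lower side, SCML2, a Polycomb-associated protein, read 7.02 and 6.99 in control cells and 6.04 and 6.20 after CTCF siRNA, −0.89 ± 0.12 (limma adjusted p = 0.137). Control siRNA at 24 h held its highest 2 values of the 14 arrays, whereas the depleted arrays lay near the untransfected cells, at 5.91 and 6.02. The size held at later times, with −0.80 at 72 h and −0.85 at 144 h, both past the threshold (limma adjusted p = 0.0387 and 0.0041).

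TP53INP1, a stress protein induced by p53 that acts in autophagy and cell death, read 9.24 and 9.17 in control cells and 8.42 and 8.38 after CTCF siRNA, −0.80 ± 0.12 (limma adjusted p = 0.156). The depleted 24 h arrays were the lowest 2 of all 14. Untransfected cells read 9.75 and 9.84, so both siRNA groups of 24 h lay below them. The difference was −0.52 at 72 h and −0.58 at 144 h, the latter past the threshold (limma adjusted p = 0.0221).

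DDHD2, a lipase known from neurons, read 7.03 and 6.87 in control cells and 5.95 and 6.16 after CTCF siRNA, −0.90 ± 0.14 (limma adjusted p = 0.233). The later differences were −0.85 at 72 h and −0.98 at 144 h, and the latter passed (limma adjusted p = 0.0039). Across the 14 arrays it was the probe set whose values ran most like those of CTCF (Pearson r = 0.974). Next came SCML1, a relative of SCML2 (r = 0.920; −0.44 at 24 h and −0.74 at 144 h, the latter with limma adjusted p = 0.0108), and LTAP1 (r = 0.914; −0.20 at 24 h). These r values describe 14 arrays that share the siRNA groups. SCML2, TP53INP1 and DDHD2 had the smallest p on the lower side, and all 3 passed at 24 h with a variance trend and robust fit, which called 5 probe sets.

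No other leaning gene on the lower side was called lower at 72 or 144 h. These genes were ZNF415, ZNF248 and the low-level LINC01555, GPR63 (an orphan G protein-coupled receptor), RDH8 (a retinol dehydrogenase of photoreceptors), F11-AS1 (antisense to the coagulation factor XI gene), PPIAL4G and SELENOKP3, whose near-identical relatives make their signal uncertain, and AFAP1L1 (an actin filament-associated protein). Their differences ran from −0.85 (LINC01555) to −0.47 (AFAP1L1). A second probe set of ZNF248, at a higher level, read 0.14, so the gene's probe sets disagree. AFAP1L1 went the other way later: it read 4.23 and 4.33 in control cells and 3.697 and 3.91 after CTCF siRNA at 24 h, but its 144 h difference was 1.02 (limma adjusted p = 0.000767). Of the 12 leaning genes on the lower side, 1 was called lower at 72 h and 3 at 144 h, where 0.087% and 1.4% of all probe sets were.

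On the higher side, STAG1, a subunit of cohesin, read 6.65 and 6.53 in control cells and 7.13 and 7.24 after CTCF siRNA, 0.60 ± 0.12 (limma adjusted p = 0.636). Both depleted arrays lay above all 8 arrays without CTCF siRNA, which run from 6.13 to 6.65. The difference was 1.21 at 72 h and 1.46 at 144 h, both past the threshold. PXN-AS1, a non-coding transcript on the strand opposite the paxillin gene, read 5.33 and 5.61 in control cells and 6.16 and 6.29 after CTCF siRNA, 0.75 ± 0.17 (limma adjusted p = 0.636), and 1.502 and 1.98 later, both past the threshold. Here too the depleted 24 h arrays exceeded every array without CTCF siRNA. The sources used here do not say how strand was treated in labelling.

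The promoter of STAG1 is shown because it was the only one of 17 leaning genes with a RefSeq window (of 24) to hold a core like that of the CTCF motif. The window runs from 250 bases before to 50 bases after the gene start on chr3:136752329-136752628 (GRCh38.p14, minus strand), and capitals mark 2 matches to a loose core written as CCA, any 2 bases, AG, any 2 bases and GGC, the first of which begins at base 211 of the window. Both strands were searched. The motif stands in 2.41% of 35093 such windows, and the stricter CCA, any 2 bases and AGGGGGC, which it includes, in 0.353% and in none of the 17. A match is a description of letters and not of binding.
STAG1 promoter: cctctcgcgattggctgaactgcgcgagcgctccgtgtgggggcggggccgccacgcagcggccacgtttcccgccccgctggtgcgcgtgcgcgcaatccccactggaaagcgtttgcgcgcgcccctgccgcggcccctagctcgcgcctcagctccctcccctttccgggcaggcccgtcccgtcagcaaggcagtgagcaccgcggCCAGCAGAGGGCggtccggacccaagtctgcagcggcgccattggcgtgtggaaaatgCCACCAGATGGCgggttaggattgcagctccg

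The remaining 10 leaning genes on the higher side had differences from 0.42 (LPIN3, a phosphatidate phosphatase) to 0.83 (FBXW4, an F-box protein of a ubiquitin ligase). ZNF502 read 3.94 and 4.13 in control cells and 4.85 and 4.63 after CTCF siRNA, and was called higher at 144 h (0.93; limma adjusted p = 0.0131). KCNRG, a regulator of potassium channels, had 0.69 at 24 h and −0.32 at 144 h, and the effect at 144 h minus that at 24 h was −1.004 (limma adjusted p = 0.0382). The 24 h value that chose KCNRG enters that test. BCL7A, a subunit of the SWI/SNF remodelling complex, had 0.63 at 24 h, 0.12 at 72 h and 0.25 at 144 h. The others were LRRC3, CXCL17 (a mucosal chemokine), GDAP1 (a protein of mitochondrial fission), CALB2 (calretinin) and LINGO4. Of the 12, 2 were called higher at 72 h and 3 at 144 h, where 0.0994% and 2.37% of all probe sets were.

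**Figure D3:**
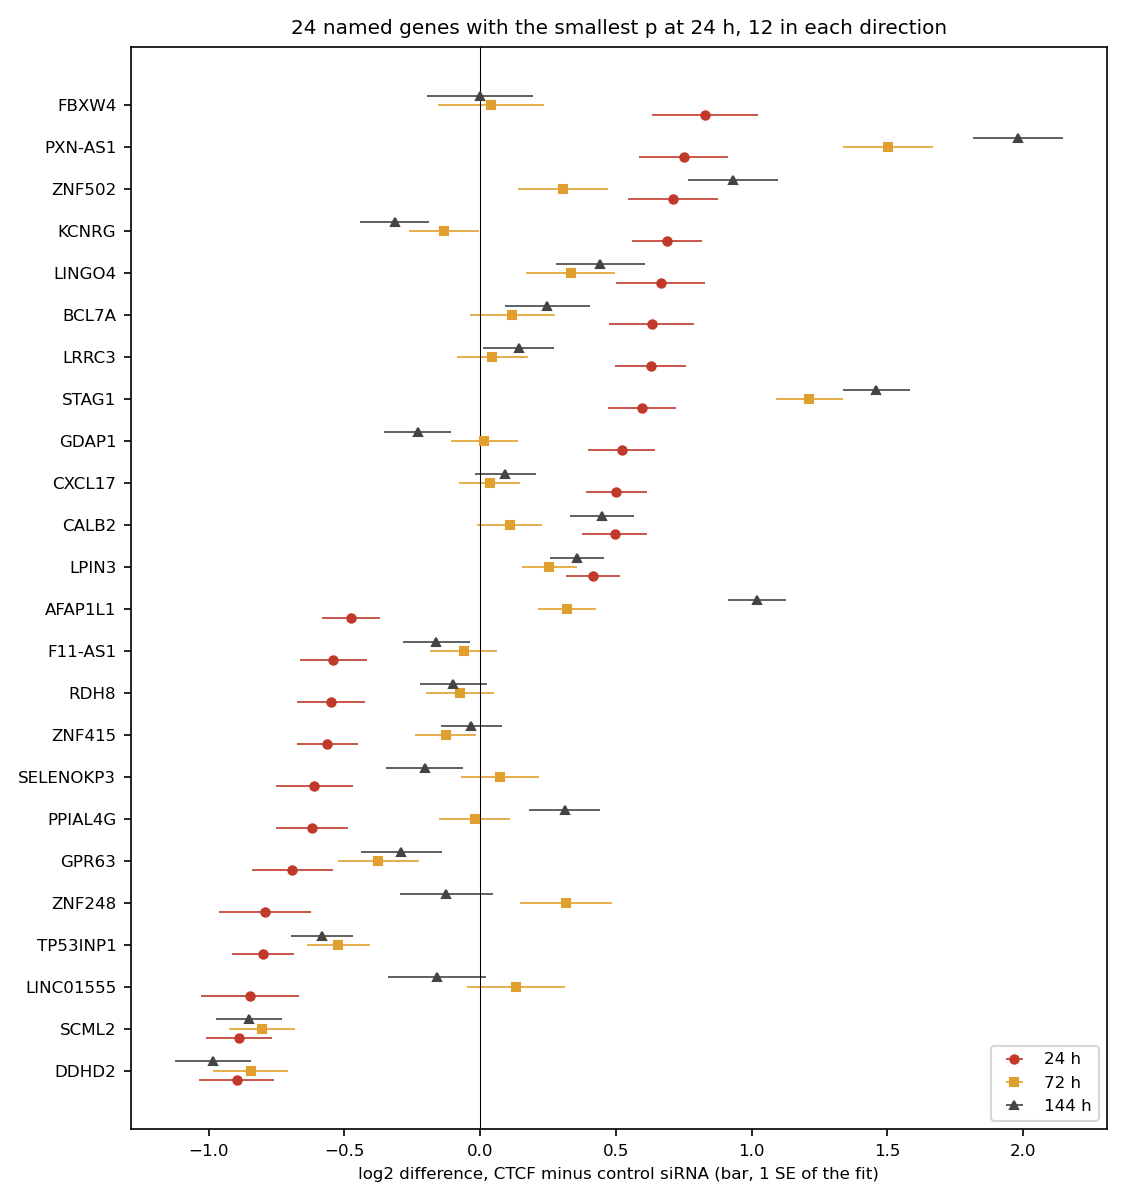
Log2 differences of CTCF minus control siRNA at 24, 72 and 144 h for the 24 named genes with the smallest p at 24 h, 12 in each direction; bars are 1 SE of the fit. SCML2, DDHD2, TP53INP1, STAG1 and PXN-AS1 keep their side at all 3 times, and AFAP1L1 crosses from −0.47 to 1.02.

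The position of the control arrays differed between these genes. For 6 of the 12 genes on the higher side (CXCL17, FBXW4, GDAP1, LPIN3, CALB2 and LINGO4), both control arrays of 24 h lay below all other 12 arrays, and for 5 of the 12 on the lower side (SCML2, ZNF415, LINC01555, GPR63 and RDH8) both lay above them. Over all probe sets 3.44% had their 24 h controls outside all other arrays, in either direction. FBXW4 shows it: its controls read 4.21 and 4.23, its depleted arrays 5.08 and 5.01, and the other 10 arrays between 4.52 and 5.10. Conversely, the depleted arrays lay outside all 8 arrays without CTCF siRNA for 6 of the 12 on the higher side, against 5.27% of all probe sets, and for 6 of the 12 on the lower side, against 3.67%. Since the genes were picked on these same arrays, these counts are a description.

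The level of a probe set moved with the direction of its lean. Among the 8049 probe sets above the median level, 3.54% had an unadjusted p under 0.05, 167 higher and 118 lower, and the median difference over all 8049 was 0.04. Among the 8049 at or below it the share was 8.52%, 205 higher and 481 lower, and the median over all of them was −0.045. In the brighter group, 13% of the probe sets with an unadjusted p under 0.05 were called in the same direction at 144 h (37 of 285), where 5.69% of that group were called at all. In the dimmer group 2.33% were (16 of 686), against 1.84%. The 37 include CTCF itself. The spread shared by all siRNA arrays entered both the 24 h and the 144 h p-values, so these shares are not fully independent of the choice. In all, 90.6% of the brighter and 70.1% of the dimmer group were held within 1.5-fold.

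Genes that responded later were examined with values that had not chosen them. In the same fit, 27 probe sets were called at both 72 and 144 h, CTCF among them. For the other 26 the 24 h arrays played no part in the choice beyond the shared spread. At 24 h, 24 of them lay on the side they took at 144 h, and the share of all probe sets that did so was not counted. At an unadjusted p under 0.05, 15 lay on that side, against 6.03% of all probe sets in either direction. For 23 the 24 h groups did not overlap on that side, where 18.7% of all probe sets lay above and 17% below. None but SCML2, STAG1 and PXN-AS1 is among the leaning genes above.

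The 24 h differences were a fraction of the later ones, with a median ratio of 24 h to 144 h of 0.217. Choosing the genes by their later differences can lower that ratio. ZBTB39, a zinc-finger gene, read 6.27 and 5.80 in control cells and 5.16 and 5.40 after CTCF siRNA, −0.76 ± 0.21 (limma adjusted p = 0.693), and −3.36 at 144 h. METTL25, a methyltransferase-like gene, read 5.75 and 5.84 in control cells and 6.39 and 6.24 after CTCF siRNA, 0.52 at 24 h and 1.98 at 144 h. In both genes the 24 h arrays were already separated. N4BP2 read 6.43 and 6.55 in control cells and 5.92 and 6.02 after CTCF siRNA, −0.52 at 24 h and −0.86 at 144 h. MAP1B, a microtubule-binding protein of neurons, read 9.14 and 8.95 in control cells and 9.37 and 9.36 after CTCF siRNA, 0.32 at 24 h and 2.97 at 144 h. Thus the depleted arrays lay only slightly above the controls where the later difference was large.

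Other late genes lay on the higher side at 24 h. CLUL1 had 0.48, SYCE3 of the synaptonemal complex 0.48, GLIPR1L2 0.48, STC1 (a secreted glycoprotein hormone) 0.47 and RPL26L1-AS1 0.41. LINC00622, ZNF648, WEE2-AS1 and ATL1 (an endoplasmic reticulum GTPase) had 0.32, 0.32, 0.28 and 0.24. On the lower side GTF2IRD2, which has a near-identical copy, had −0.39, SAAL1 −0.37, PBLD −0.37, KAT2B (a histone acetyltransferase) −0.37 and EOGT −0.24. In each of these the 24 h groups did not overlap, although no gene passed the threshold. Several sizes rested on single arrays. Without control siRNA 24 h replicate 2 the difference was 0.22 in CLUL1, 0.16 in GLIPR1L2, 0.16 in RPL26L1-AS1, −0.16 in SAAL1 and −0.41 in EOGT, and without control siRNA 24 h replicate 1 it was 0.75, 0.81, 0.66, −0.59 and −0.07. Without CTCF siRNA 24 h replicate 2 it was 0.19 in STC1, 0.29 in SYCE3 and 0.57 in LINC00622, and without CTCF siRNA 24 h replicate 1 it was 0.75, 0.67 and 0.07.

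Some late genes were held within 1.5-fold at 24 h, which leaves room for a smaller difference. For 7 of the 26 the 95% interval lay within 1.5-fold, namely EOGT, ATL1 and WEE2-AS1 above, RP9 and CPNE2, with 0.16 and −0.11 at 24 h, PPA2, a mitochondrial pyrophosphatase (6.30 and 6.32 in control cells, 5.94 and 6.31 after CTCF siRNA; −0.18 ± 0.17), and SVIL, an actin-binding protein, with 0.09 ± 0.11 and −1.19 at 144 h. OCRL, an inositol polyphosphate phosphatase, read 7.03 and 7.15 in control cells and 6.98 and 6.92 after CTCF siRNA, −0.14 ± 0.22, and −2.798 at 144 h. Its 24 h difference was small, but its interval reached beyond 1.5-fold. For 16 of the 26 the effect at 144 h differed from that at 24 h (limma, 0.795% of all probe sets), and SCML2, N4BP2 and STAG1 were not among them.

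**Figure D4:**
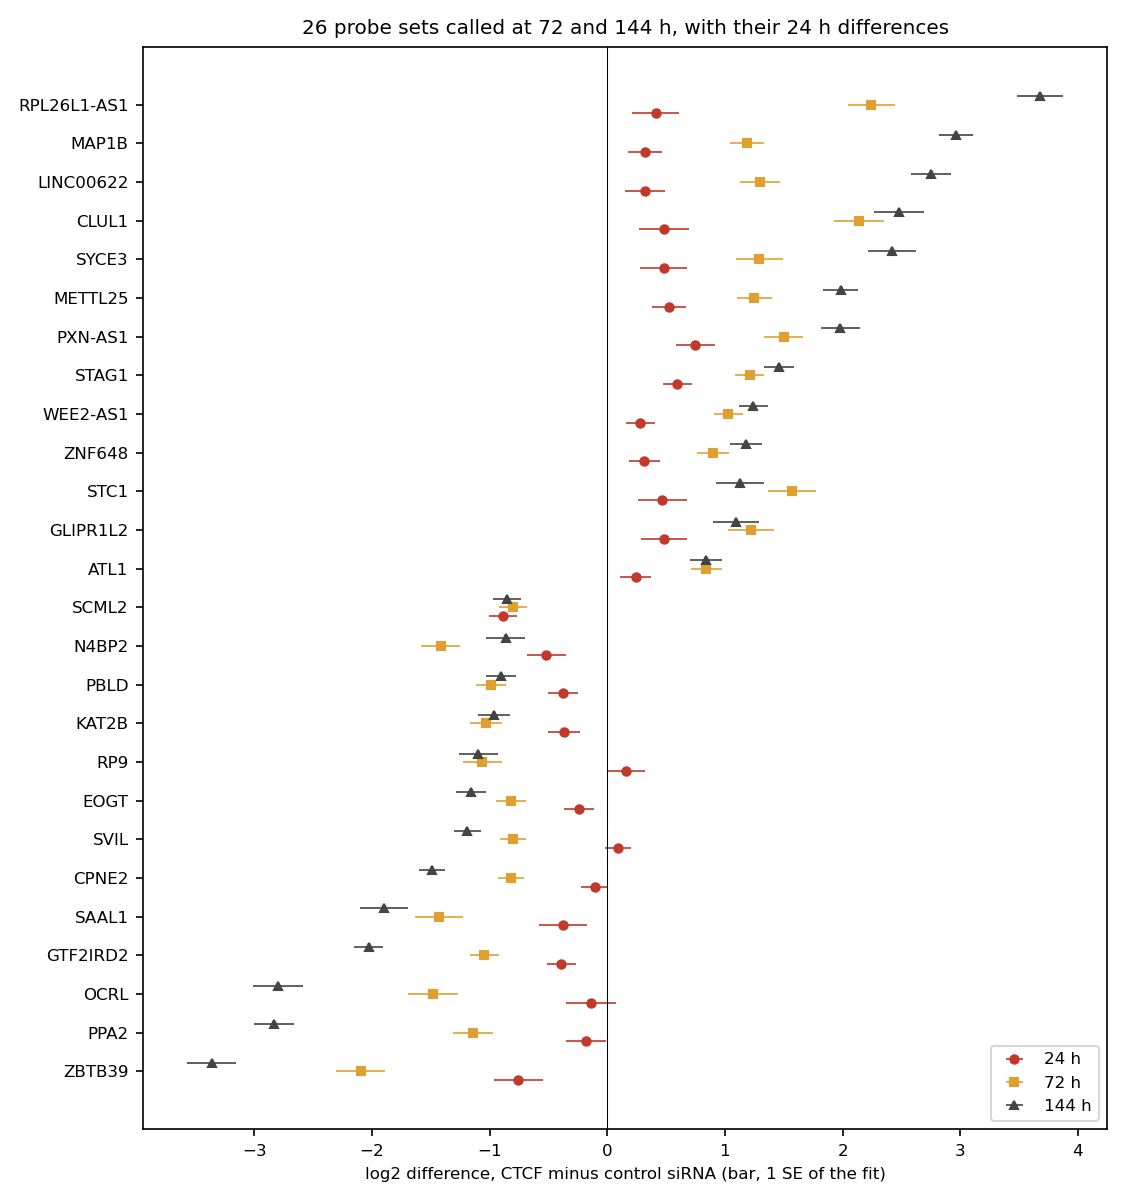
Log2 differences of CTCF minus control siRNA at 24, 72 and 144 h for the 26 probe sets other than CTCF called at both 72 and 144 h; bars are 1 SE of the fit. At 24 h 24 of the 26 lie on their 144 h side (share over all probe sets not counted), mostly close to 0, while SCML2 is at its full size.

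Gene lists were read next, each by its counts and its median beside those of all genes. Listed genes without a tested probe set were not read, so each list stands for its measured members only. The 35 lists hold 460 distinct measured genes, of which 24 had an unadjusted p under 0.05 (5.22%, 8 higher and 16 lower), against 6.09% of all 14884 genes with 1 probe set each (2.32% higher and 3.77% lower). The share held within 1.5-fold was 78.9%, against 80.4%. In 20 of the lists no member had an unadjusted p under 0.05, in 10 every measured member was held within 1.5-fold, and 32 had a median within 0.1 of 0. The median over all genes was 0.01. With 1 array left out, the medians of 19 of the 35 lists crossed 0, so a small median is no sign that a list was steady.

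Few genes that work with CTCF leaned beside STAG1. In the list of CTCF, its paralog and cohesin the 12 members besides CTCF and STAG1 differed by −0.10 to 0.21. None of the 13 measured partner proteins of CTCF, nor of the 9 genes with a textbook link to it, had an unadjusted p under 0.05, and 12 of the 13 and all 9 were held within 1.5-fold. The exception was KAT5, a histone acetyltransferase, at 0.23 ± 0.17. Of the 10 nearest measured neighbours of the CTCF gene, 9 were held, and KCTD19, at −0.32 ± 0.18, was not. LRRC36, which was held, had the smallest p, with −0.26. Among 28 DNA and histone modifying enzymes 27 were held, the exception being KAT2B, whose difference was −0.37 and which is among the late genes above.

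In the growth and stress programmes few members stood out. No member of the S phase (28 measured) or G2 and mitosis list (33) had an unadjusted p under 0.05, and their medians were −0.01 and −0.02. Single arrays set the side of both medians, which were 0.12 and 0.22 without CTCF siRNA 24 h replicate 1 and −0.19 and −0.27 without CTCF siRNA 24 h replicate 2. Without control siRNA 24 h replicates 1 and 2 in turn they were −0.11 and 0.06 for S phase, and −0.18 and 0.16 for G2 and mitosis. Of 19 listed p53 targets 10 were measured, and the 9 besides TP53INP1 differed by −0.21 to 0.11. Interferon-stimulated genes (23) and the sensors of double-stranded RNA (9), which can respond to introduced siRNA, had no such member and medians of 0.002 and −0.01, and 14 of the 23 and 8 of the 9 were held within 1.5-fold. Over single arrays left out these medians ran from −0.09 to 0.08 and from −0.01 to 0.10. In 6 further lists every measured member was held within 1.5-fold, but many listed genes were not measured. These were RNA interference machinery (6 measured of 14 listed), sterol synthesis (12 of 20) and fatty acid synthesis (10 of 12). The others were cytosolic heat shock (8 of 14), the respiratory chain (10 of 33) and general housekeeping (7 of 18). Of the 8 measured unfolded protein response genes (17 listed) none had an unadjusted p under 0.05. Only 3 were held, so the intervals of the other 5 allow more than 1.5-fold.

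In a few lists most members lay on the higher side. In the integrated stress response, 13 of 14 members had a positive difference, from 0.01 to 0.29, the exception being VLDLR, a lipoprotein receptor, at −0.38, and 7 of the 14 were held within 1.5-fold. Among the immediate early genes 12 of 14 were positive with a median of 0.09, whereas EGR3, a zinc-finger member of that class, was at −0.64 (control 4.36 and 4.28, CTCF siRNA 3.46 and 3.90). Of 20 cytosolic ribosomal protein genes 16 were positive with a median of 0.06, RPL32 leading with 0.35. In the respiratory chain 9 of 10 were positive, with a median of 0.07, which ran from 0.01 to 0.14 with 1 array left out. The medians moved with single arrays. For the ribosomal proteins it was −0.009 without control siRNA 24 h replicate 1, 0.01 without CTCF siRNA 24 h replicate 2, and 0.12 and 0.11 without the other control and the other CTCF siRNA array. For the stress response, 0.09 over all arrays, it was 0.03 without control siRNA 24 h replicate 2 or CTCF siRNA 24 h replicate 1, and 0.19 and 0.14 without control siRNA 24 h replicate 1 or CTCF siRNA 24 h replicate 2. For the immediate early genes it was 0.04 without control siRNA 24 h replicate 1 or CTCF siRNA 24 h replicate 2, and 0.06 without CTCF siRNA 24 h replicate 1. The highest with 1 array left out was 0.12. Over all genes 7891 of 14884 were positive, and above the median level 5135 of 8049 probe sets were. These lists sit at a high level, at median percentiles of 85, 66.8, 90.2 and 90.3. Among the brighter probe sets the median difference was positive, at 0.04.

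Other lists leaned lower. The imprinted genes had a median of −0.10, with 11 of 15 held within 1.5-fold and MEG3, a maternally expressed long non-coding RNA, at −0.53 (control 2.89 and 3.18, CTCF siRNA 2.49 and 2.52). HOX genes had a median of −0.08, and 3 of 27 had an unadjusted p under 0.05, all lower: HOXB2 at −0.32, HOXB7 at −0.39 and HOXD12 at −0.46. Over all genes 3.77% were lower at that p, as were 481 of the 8049 probe sets at or below the median level. The basal epithelial markers (5) had a median of −0.21, none at an unadjusted p under 0.05. Without 1 array the medians ran from −0.16 to −0.08 for the imprinted genes, from −0.10 to −0.03 for HOX genes (the latter without CTCF siRNA 24 h replicate 1) and from −0.36 to −0.06 for the basal markers (without control siRNA 24 h replicates 2 and 1). These lists sit at a lower level, at median percentiles of 48.3, 41 and 26.9, where the median of all probe sets was also below 0. No detection calls were used, so whether the dim basal markers were expressed at all is unknown. Nor can fewer cells of a type and less RNA per cell be told apart in a bulk culture. Of the luminal identity genes, KRT8, a luminal keratin, had −0.32 and GATA2, a transcription factor of the androgen response, 0.29, and all 11 were held within 1.5-fold. CHGB and SYP, both neuroendocrine markers, had 0.43 and −0.39.

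The kallikrein locus, which the study divides into a domain active in these cells and a silenced one, gave no gene past the threshold. In the active domain the 6 measured genes differed by −0.18 to 0.38. KLK3, which encodes prostate-specific antigen, read 8.15 and 8.20 in control cells and 7.96 and 8.03 after CTCF siRNA, −0.18 ± 0.18 with a 95% interval of −0.58 to 0.22. Its arrays did not overlap. KLK2 had 0.06 and KLK4 0.05, and KLK1, at the upper end, read 4.31 and 4.41 in control cells and 4.43 and 5.05 after CTCF siRNA. In the silenced domain the 10 genes ran from −0.31 (KLK11) to 0.24 (KLK10) with a median of −0.23, and 5 of them were held within 1.5-fold. The median was −0.04 without control siRNA 24 h replicate 1, −0.02 without CTCF siRNA 24 h replicate 1 and −0.16 without control siRNA 24 h replicate 2, and KLK11 ran from −0.57 to −0.05 without CTCF siRNA 24 h replicates 2 and 1. Taken within the replicate numbers, the medians of that domain lay on opposite sides of 0, at −0.21 in number 1 and 0.11 in number 2. KLK8 had the smallest p there, with 5.13 and 4.96 in control cells and 4.63 and 4.85 after CTCF siRNA (−0.30). The 17 androgen response genes measured had a median of 0.01, none at an unadjusted p under 0.05.

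**Figure D5:**
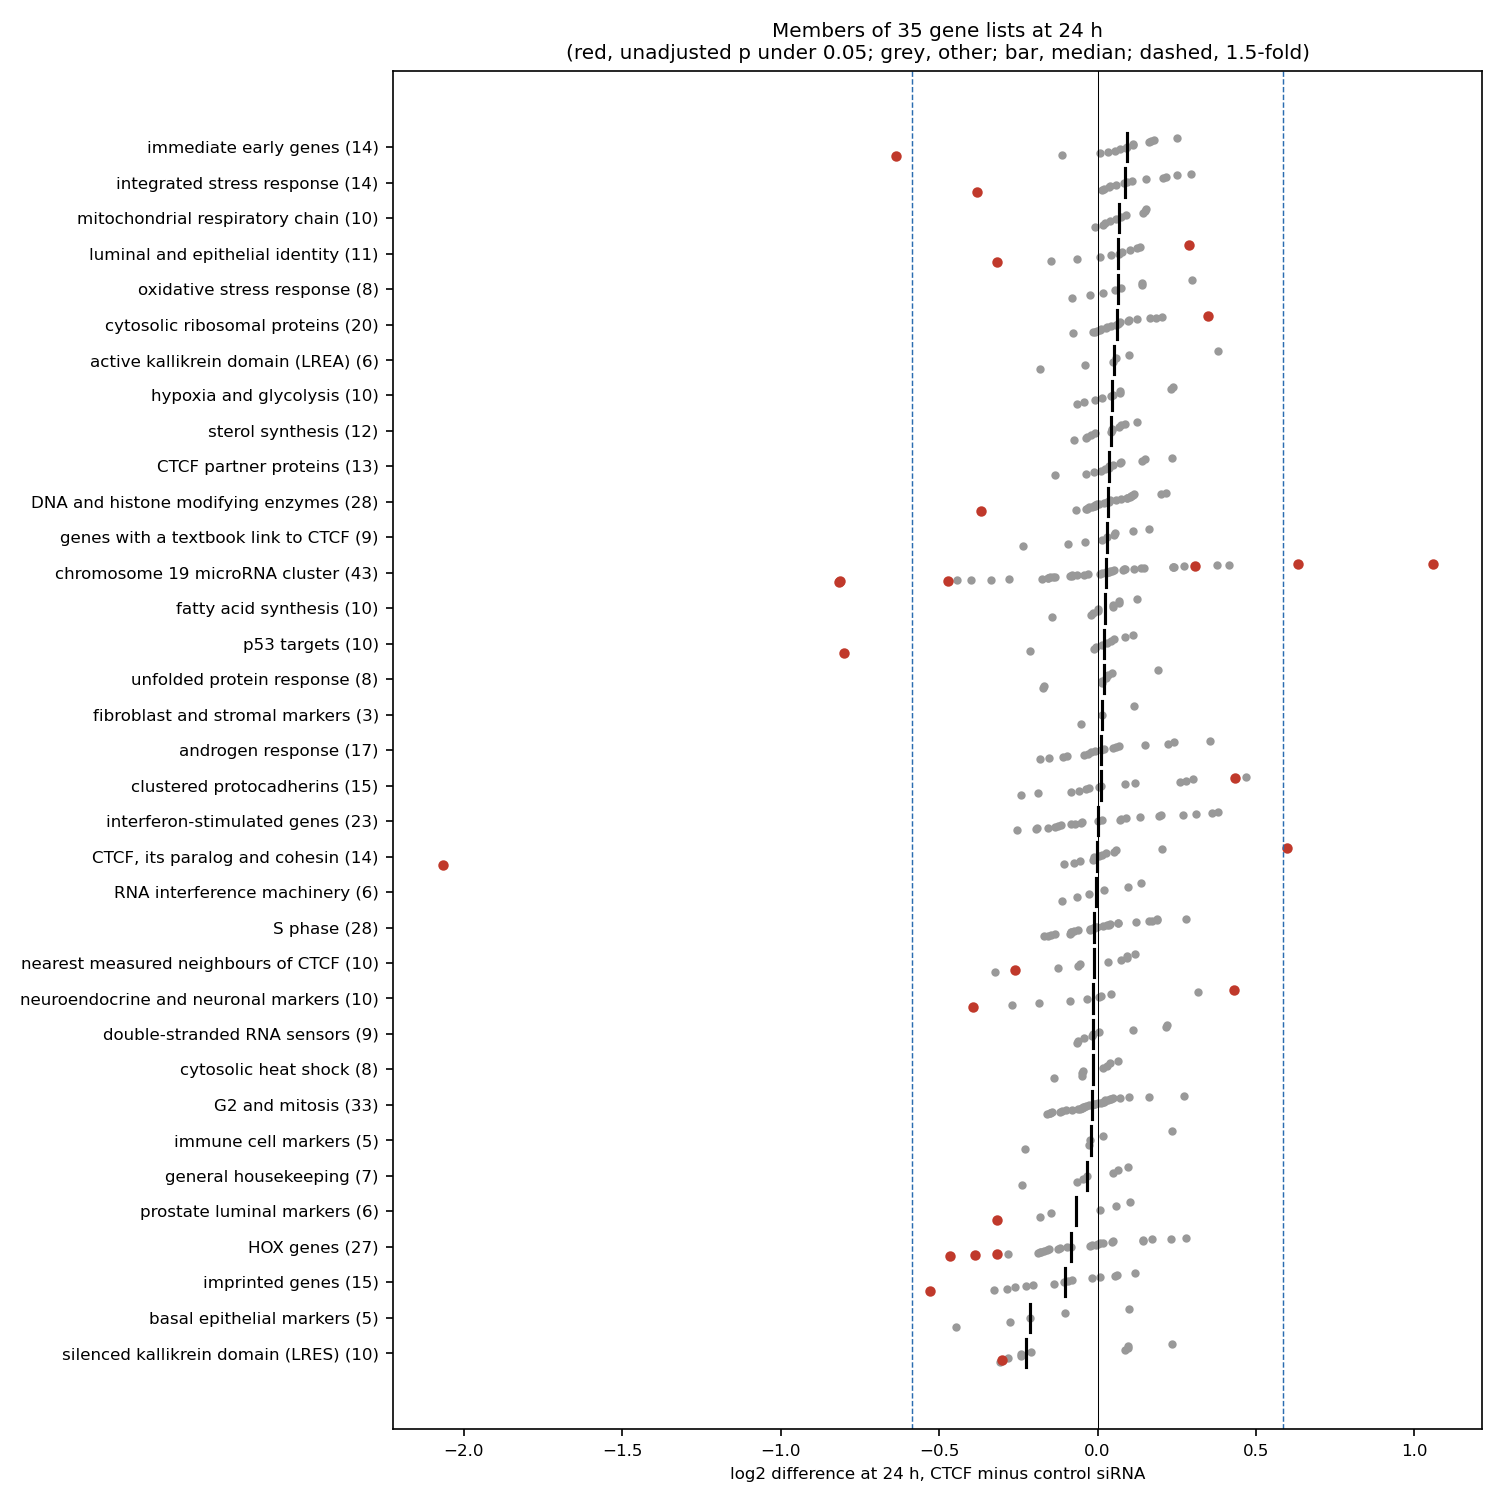
Log2 differences at 24 h of the measured members of 35 gene lists (points; red at an unadjusted p under 0.05, grey otherwise) with the list median (black bar), ordered by median, and dashed lines at 1.5-fold. Medians run from −0.23 in the silenced kallikrein domain to 0.09 in the immediate early genes; CTCF, at −2.07, is the point at the far left.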

How the data were processed

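The deposited values are RMA log2 values, 1 column per array, which the authors made in R 3.2.5 by background correction, quantile normalisation and median polish over the probes of a probe set. No detection calls were used here, so the distance of a dim value from background is unknown, and quantile normalisation would remove a shift shared by all genes. The platform annotation named 1 gene for 16098 of 53617 rows, and the other 37519 rows entered an alternative only. All named gene identifiers were found in RefSeq GRCh38.p14.

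Differences were fitted with limma 3.58.1 in R 4.3.3 on the 12 siRNA arrays (6 groups, replicate number of the titles as a fixed block, two-sided, Benjamini-Hochberg, threshold 0.05), which pools the spread over times. An array has no read depth, and the number of arrays limits the precision. The script was tested on simulated data with 200 changed probe sets. The probe set with the highest mean stood for each gene in the lists.

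Named are CTCF, all calls at 24 h, 12 genes per direction with the smallest p and the same sign in both replicate numbers (small RNA and placeholder symbols only counted), the kallikreins, up to 4 genes per list, the genes called at 72 and 144 h, and the 3 most like CTCF. MIR520G was named for its place in a list. The members and lists were chosen with earlier results of these data known. Alternatives changed the block, the arrays, the variance model, the rows tested, the level filter and the scaling.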

Additional observations from a re-analysis of the deposited data

Results flagged for a closer look

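For 19 of the named genes the CTCF effect at 144 h differed from that at 24 h (limma, adjusted over 16098 probe sets, of which 0.795% passed). These genes were named for their 24 h p or for calls at both 72 and 144 h. The values that chose them enter this test, so the count of 19 is a description. The values are the 144 h difference minus the 24 h difference, in log2. Genes that moved lower between the times were OCRL (−2.661), PPA2 (−2.649), ZBTB39 (−2.605), GTF2IRD2 (−1.639), SAAL1 (−1.524), CPNE2 (−1.383), SVIL (−1.278) and RP9 (−1.256), all late genes that were called lower at 72 and 144 h. MIR519D (−1.371) and KCNRG (−1.004) went from a positive value at 24 h to a negative one at 144 h, and in neither did the 144 h difference pass the threshold. Genes that moved higher were WEE2-AS1 (0.9624), PXN-AS1 (1.231), METTL25 (1.46), SYCE3 (1.943), CLUL1 (1.995), LINC00622 (2.429), MAP1B (2.649) and RPL26L1-AS1 (3.267). AFAP1L1 (1.494) lay below its controls at 24 h and above them at 144 h. The number of probe sets past this test fell from 128 to as few as 23 when 1 array was left out.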

How the results depend on the processing

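CTCF kept its direction in every setting run, and passed the threshold without the replicate block, with all 14 arrays, with a variance trend and robust fit, in the brighter probe sets alone and under both rescalings. It did not pass in the 4 arrays of 24 h alone (−2.066, limma adjusted p = 0.3) or over all rows, named or not (−2.066, adjusted p = 0.135), and over single arrays left out it ran from −2.35 to −1.782 with an adjusted p of 0.00459 to 0.196. The number of calls, 2, was 2 without the replicate block, 0 in the 4 arrays alone and over all rows, 5 with the trend and robust fit, 3 in the brighter probe sets, and 0 to 2 with an array left out. The study's methods enter the replicates as paired, and the labels do not say what a number shares. The deviations of same-numbered arrays correlated at r = 0.043 at 24 h, 0.228 at 72 h and 0.154 at 144 h. The count at an unadjusted p under 0.05, 971, was 3098 over all rows, 402 (255 higher and 147 lower) in the brighter probe sets, and 860 to 996 with an array left out. The count for 144 h minus 24 h, 128, was 218 with the trend and robust fit, 21 over all rows and 23 to 106 with an array left out. The fewer or more rows tested set the all-row and brighter-set counts in part, and the cause of the others was not tested. With an array of 24 h left out, KLK2 (−0.1714 to 0.2901), KLK4 (−0.07704 to 0.1715), PPA2 (−0.3943 to 0.02955), RP9 (−0.08397 to 0.4051) and the second ZNF248 probe set (−0.03129 to 0.3057) crossed 0. SCML2 and TP53INP1 passed with the trend and robust fit and in the brighter probe sets, and DDHD2 with the former. The medians of 19 of the 35 lists crossed 0 too, and 27 of 72 named probe sets moved by over 1.5 times. Other named genes kept their direction, and their side of the threshold except MIR519D, which lost its call in 12 settings. Dim probe sets have the widest intervals and no detection call.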
